A study of Mus musculus with 6 samples.

Results

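The 47 axon guidance ligands and receptors described here comprised 6 genes of the Slit and Robo families, 10 netrins and netrin receptors, 21 ephrins and Eph receptors, and 10 class 3 semaphorins, A-type plexins and neuropilins. They were chosen by name from these families and located by their GENCODE M21 records on the mouse genome build mm10, among the 21938 protein-coding genes of chromosomes 1 to 19 and the sex chromosomes. Of the 47 genes, 20 encode ligands and 27 encode receptors. H3K9me3 was profiled by ChIP-seq, the sequencing of DNA bound to immunoprecipitated histones, in neural stem cells (NSCs) of C57BL/6J mice, taken from the cerebral cortex of fetuses at E12.5 and grown in dishes with EGF and FGF. Cells infected with a lentivirus carrying a scramble shRNA (shCTR) were compared with cells that received a lentiviral shRNA against PHF8 (shPHF8), and cells of both conditions were selected with puromycin. Each condition had 2 ChIP libraries and 1 input, and the inputs were not analysed here. Whether the libraries of a condition came from separate cultures is not given in the sources used here, so the spread between them may be technical.

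Axon guidance molecules steer the growing tip of an axon. Slits, acting through Robo receptors, mostly repel axons at the midline. Netrins attract them through Dcc and repel them through Unc5 receptors. Ephrins are tethered to membranes and signal through Eph receptor tyrosine kinases to sort axons and to keep cell populations apart, and secreted class 3 semaphorins bind neuropilins, which pair with A-type plexins as the signalling subunit. In the developing cortex several of these molecules are also made by radial glia and newborn neurons, where they take part in cell migration and progenitor divisions. Trimethylation of lysine 9 of histone H3 (H3K9me3) is a mark of compact, silenced chromatin, and PHF8 is a demethylase of the KDM7 family that removes the dimethyl mark from the same residue. The comparison asks where this mark differed at the guidance genes when PHF8 was depleted.

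The values are peaks, that is, stretches of neighbouring windows that the SICER2 peak caller scored as enriched in reads in a library. The lists give positions without a height or a p value, so the quantity compared below is the number of bases covered by peaks, in the gene body (the gene record from start to end) or in the promoter (3 kb on either side of the 5′ end of the record). A gene was called higher when the lower of its shPHF8 values exceeded the higher of its shCTR values, and lower in the opposite case. Peaks of the 4 libraries that overlapped or touched were merged into 71107 regions. A region found in the pair of shPHF8 libraries and absent from the pair of shCTR libraries is a gained region (3040 in the genome), and the reverse is a lost region (3579 in the genome). With 2 libraries against 2, the exact two-sided permutation test cannot give a p below 0.333, so this test cannot pass a threshold of 0.05. No other test was made, and the differences below are descriptions.

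Several facts of the libraries touch every value below. The shPHF8 libraries covered 219.2 and 197.1 Mb of the chromosomes, against 156.8 and 159.7 Mb in shCTR, while the number of peaks ranged from 44316 to 55555. Peaks were wider in shPHF8, with medians of 4200 and 2800 bp for replicates 1 and 2 against 2400 bp in each shCTR library. The lists hold no read counts, so the depth behind each peak is not known from them. The paper's appendix does count reads per library, and shPHF8 replicate 2 had the fewest mapped reads of the 4 libraries. What this did to the peaks was not tested. A repressive mark does not measure expression, so neither the knockdown nor the cell type could be checked: Phf8 itself had no covered base in any library, and a promoter peak in at least 1 library was present at 5 of 8 NSC markers and 4 of 15 markers of neurons, glia, microglia and endothelium.

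The sequences under regions lost over a promoter, and under the widest gained region of each of 4 genes, are printed first, as examples. These 4 genes were called higher in the gene body and had a gained region of at least 3000 bp. The gained regions of Robo1, Ntn1 and Efna5 did not meet this choice and are not printed. Each is 200 bp at the centre of the longest stretch common to both libraries that had the peak. A window over an annotated untranslated exon was moved to the nearest place free of one, as for Epha4, so such exons are absent by choice. The bases are from GRCm38.p6 (mm10) as given by RefSeq, written 5′ to 3′ in the direction of transcription of the gene. Capitals mark CG dinucleotides, the sites of DNA methylation. The 5 windows of lost regions over promoters were all outside exons. They lie at chr19:41742701-41742900 on the minus strand (Slit1, from 765 to 964 bp after the gene start), chr10:60833501-60833700 on the minus strand (Unc5b, upstream of the gene), chr4:28816301-28816500 on the plus strand (Epha7, from 3170 to 3369 bp after the start), chr3:89319101-89319300 on the minus strand (Efna3, from 3665 to 3864 bp after the start) and chr1:62705101-62705300 on the plus strand (Nrp2, from 1816 to 2015 bp after the start).
Slit1: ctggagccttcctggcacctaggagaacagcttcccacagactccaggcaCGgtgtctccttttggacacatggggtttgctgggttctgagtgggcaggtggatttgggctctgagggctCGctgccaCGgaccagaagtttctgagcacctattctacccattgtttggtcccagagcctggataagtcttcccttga
Unc5b: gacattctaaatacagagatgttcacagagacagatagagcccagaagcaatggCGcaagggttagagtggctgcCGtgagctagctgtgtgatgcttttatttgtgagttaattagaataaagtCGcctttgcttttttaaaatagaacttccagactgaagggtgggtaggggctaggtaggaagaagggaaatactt
Epha7: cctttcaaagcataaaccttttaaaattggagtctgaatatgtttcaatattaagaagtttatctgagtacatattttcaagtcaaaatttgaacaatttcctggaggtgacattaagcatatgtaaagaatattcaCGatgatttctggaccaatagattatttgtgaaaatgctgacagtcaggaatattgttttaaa
Efna3: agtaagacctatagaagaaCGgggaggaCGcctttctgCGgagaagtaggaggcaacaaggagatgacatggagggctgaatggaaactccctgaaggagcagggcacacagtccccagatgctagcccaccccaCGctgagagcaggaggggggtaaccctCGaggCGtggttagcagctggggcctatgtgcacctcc
Nrp2: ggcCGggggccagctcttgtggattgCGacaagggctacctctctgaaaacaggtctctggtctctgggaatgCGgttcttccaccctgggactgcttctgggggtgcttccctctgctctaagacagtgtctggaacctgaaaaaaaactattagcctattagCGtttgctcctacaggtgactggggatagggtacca
They hold from 1 CG (Epha7) to 6 CG (Efna3), where the median was 2 CG over windows of this length in all lost regions of the genome, 79.1% of which held at least 1. The Epha7 window is mostly A and T, with a GC content of 29%, and the Efna3 window reaches 59%.

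The 4 windows of gained regions lay inside their genes, beyond the promoter: at chr11:35251901-35252100 on the plus strand (Slit3, intron), chr4:141322101-141322300 on the plus strand (Epha2, overlapping an exon), chr1:77506348-77506547 on the minus strand (Epha4, intron) and chr9:102229101-102229300 on the minus strand (Ephb1, intron).
Slit3: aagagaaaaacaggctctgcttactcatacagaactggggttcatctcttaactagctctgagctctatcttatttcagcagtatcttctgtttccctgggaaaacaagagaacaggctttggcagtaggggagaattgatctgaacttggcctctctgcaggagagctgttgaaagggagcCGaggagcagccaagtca
Epha2: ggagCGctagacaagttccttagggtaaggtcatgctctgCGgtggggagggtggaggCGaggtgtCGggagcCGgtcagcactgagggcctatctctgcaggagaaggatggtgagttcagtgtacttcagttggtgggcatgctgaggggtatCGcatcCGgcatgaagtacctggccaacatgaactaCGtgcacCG
Epha4: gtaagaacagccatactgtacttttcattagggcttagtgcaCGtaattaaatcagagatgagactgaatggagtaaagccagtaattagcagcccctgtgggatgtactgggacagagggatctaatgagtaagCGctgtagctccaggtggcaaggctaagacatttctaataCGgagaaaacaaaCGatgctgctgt
Ephb1: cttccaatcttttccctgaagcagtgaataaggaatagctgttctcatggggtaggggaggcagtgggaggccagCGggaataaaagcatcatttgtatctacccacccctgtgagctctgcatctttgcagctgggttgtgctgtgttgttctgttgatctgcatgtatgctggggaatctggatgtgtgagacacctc
The Epha2 window held 9 CG and the others held 1 (Slit3), 4 (Epha4) and 1 (Ephb1), against a median of 2 CG over windows in all gained regions, 77.7% of which held at least 1. Over whole regions, the 12 gained regions at the guidance genes had a median soft-masked (repeat) share of 11.2%, against 28.1% over all gained regions. For the 21 lost regions at these genes the share was 12.9%, against 23.6% over all lost regions. The 81 regions over these genes that had a peak in every library had a median repeat share of 21.0%, against 27.6% over the 26971 such regions of the genome. CG dinucleotides were denser at the guidance genes, with medians of 1.23 per 100 bp in the gained regions and 1.69 in the lost regions at the guidance genes, against 0.964 and 0.938 over all regions of the same kind. Regions with a peak in every library had 1.17 at the guidance genes and 1.01 over the genome, so the gained regions were close to other marked regions of these genes. These differences in sequence were not tested.

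The guidance genes are long, and long genes hold more peaks. Their median length was 144.76 kb (from 4.639 kb for Efna4 to 1097.44 kb for Dcc), against 17.425 kb over all protein-coding genes. A peak was present in the gene body in at least 1 library in 35 of 47 genes (74.5%), against 47.2% of all protein-coding genes. When the share of all protein-coding genes was standardised to the lengths of the 47 genes, over 6 classes of gene length, it was 72.5%. A peak in every library was present in the body of 20 genes (42.6%), against 29.4% of all protein-coding genes and 56.7% after standardisation for length. The median share of the gene body covered by peaks, as a mean of the 4 libraries, was 2.32% for the guidance genes and 0% for all protein-coding genes. By length class the order was mixed. The guidance genes were above at 20 to 50 kb (10.4 against 1.38%) and 100 to 200 kb (11.2 against 5.74%). They were below at 50 to 100 kb (1.81 against 4.02%), 200 to 500 kb (0.893 against 4.89%) and 500 kb and over (1.54 against 2.75%). Under 20 kb both medians were 0%. The guidance genes thus had a peak somewhere about as often as genes of their length, and a peak in every library less often. No test was made of these differences.

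**Figure D1:**
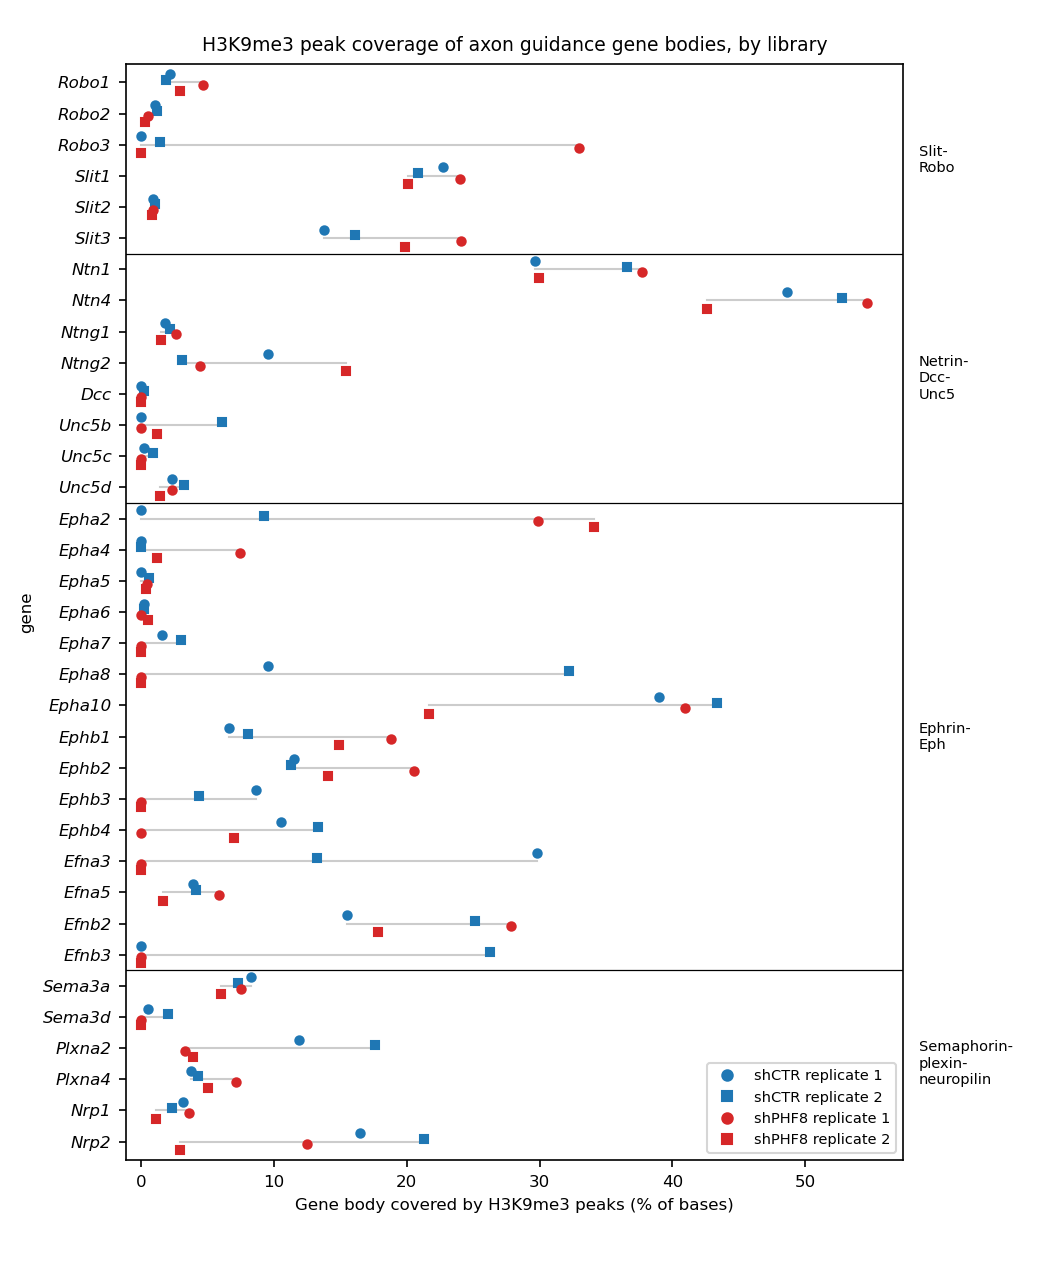
Share of the gene body covered by H3K9me3 peaks (horizontal axis, % of bases) in each of the 4 libraries for the 35 guidance genes with a peak in any library, grouped by family. Blue symbols are shCTR and red symbols shPHF8, circles replicate 1 and squares replicate 2, and a grey line joins the lowest and highest library. Ntn4 and Epha10 have the most covered bodies in shCTR, and the Plxna2, Nrp2 and Epha8 rows have both red symbols to the left of both blue ones.

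Coverage differed widely between the 47 genes. Ntn4, which encodes a laminin-related netrin of basement membranes, was the most covered, with 48.6 and 52.8% of its body covered in the shCTR libraries and 54.6 and 42.6% in the shPHF8 libraries (replicates 1 and 2 in this order, here and below). Epha10, an Eph receptor that lacks kinase activity, followed with a mean of 36.2%, then Ntn1 (netrin 1) with 33.5%, Slit1 with 21.9% and Efnb2 (ephrin B2) with 21.6%. In these 5 genes the shCTR and shPHF8 libraries overlapped in the gene body. At the other end, 12 genes had no peak in the body in any library: Ntn5, Unc5a, Epha1, Epha3, Ephb6, Efna1, Efna2, Efna4, Sema3c, Sema3e, Sema3f and Plxna1. Of these, 9 had none in the promoter either, and Unc5a, Ephb6 and Sema3e had one there. Epha3, at 320.6 kb, was the longest of the genes with no peak at all.

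In the gene body, 7 of 47 guidance genes were higher in shPHF8 (14.9%), against 13.0% of all protein-coding genes and 26.6% after standardisation for length. Lower coverage was called in 10 genes (21.3%), against 6.08% of all protein-coding genes and 9.67% after standardisation, which corresponds to 4.54 genes of 47. The other 30 genes comprised 18 whose conditions overlapped and the 12 without a peak in the body. Receptors made up 6 of the 7 higher genes and 8 of the 10 lower ones, and 27 of all 47. Counts by role or family, here and below, were not standardised for length. Median gene length ran from 28.6 kb (ephrins and Eph receptors) to 422.3 kb (Slits and Robos). Higher calls ran from 5.90% of all genes under 20 kb to 45.7% of those of 500 kb and over. Differences between families are therefore not separable from length. After the covered bases were scaled to equal library totals, 5 genes were higher and 17 lower, against 6.98% and 14.1% of all protein-coding genes. All 10 lower genes stayed lower, while Ephb2 and Plxna4 were no longer higher. Scaling reduced the largest differences between the means by over 1.5 times and reversed the order of the first pair: 27254 bp for Ephb1 (41173 unscaled) and 11888 bp for Slit3 (41353.5 unscaled). For Robo1, Ephb2 and Plxna4 the scaled differences were 6746, 3608 and 3106 bp. When peaks narrower than 3000 bp were left out, 1 gene was lower, against 1.76% of all protein-coding genes, a share near the background. Leaving out a library can only add calls. Without shPHF8 replicate 2 there were 15 higher genes (21.4% of all protein-coding genes), without shCTR replicate 1 there were 17 lower genes (12% of all), and without shPHF8 replicate 1 there were 19 (11.1% of all). Shares of all protein-coding genes under these settings, and under the alternative settings below, were not standardised for length. In the main comparison above, standardisation raised the share of higher and of lower gene bodies.

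**Figure D2:**
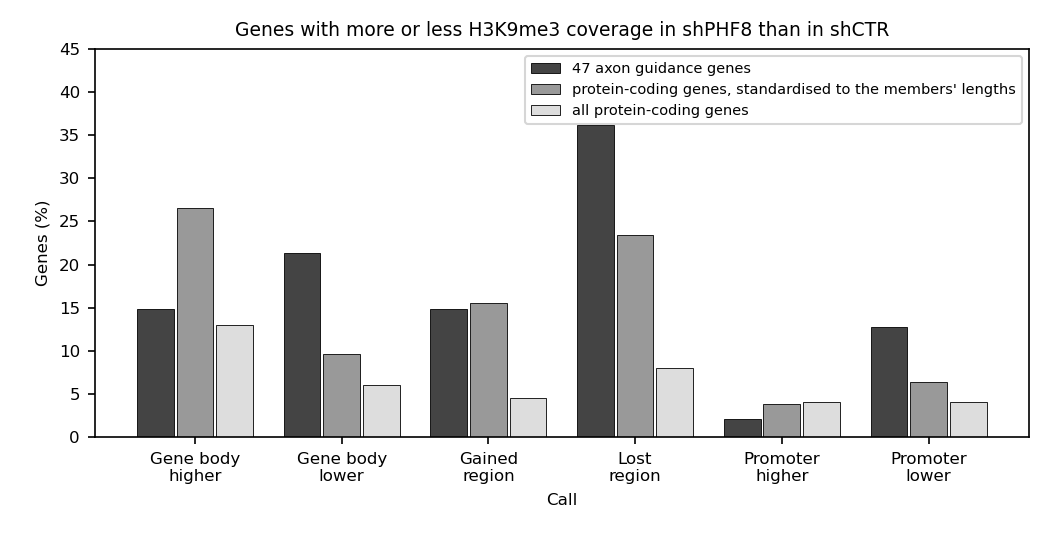
Percentage of genes (vertical axis) with each call, for the 47 guidance genes (dark bars), for protein-coding genes standardised to the lengths of these genes (grey bars) and for all 21938 protein-coding genes (light bars). The dark bar stands above both others for gene body lower (21.3%), lost region (36.2%) and promoter lower (12.8%), and below the length-standardised bar for gene body higher (14.9 against 26.6%).

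Among the Slits and Robos, 2 genes were higher and 1 was lower in the gene body. Slit3 (chr11:35121224-35708507, plus strand), a secreted ligand of Robo receptors, had, with Ephb1, one of the largest differences in covered bases among the 47 genes. Its covered bases were 80884 and 94377 in shCTR and 141484 and 116484 in shPHF8, with means of 87630.5 ± 9541 and 128984 ± 17677.7 bp (SD, n = 2), a ratio of 1.47. Both shPHF8 libraries lay above both shCTR libraries, but the gene also held both kinds of region: 3 gained regions in introns, between 128.8 and 241.2 kb from the gene start, and 3 lost regions, 2 in introns and 1 over a coding exon at 508.4 to 510 kb. The gained and lost regions differed by 10600 and -7400 bp between the condition means, and a larger part of the difference (24653.5 bp) lay in regions that had a peak in every library and more covered bases in shPHF8. Slit1, another repellent ligand, had 32600 and 29865 bp in shCTR and 34400 and 28800 bp in shPHF8, and its body did not separate the conditions. Slit2, the best studied of the 3 Slits, was nearly bare, with 2600 to 3400 bp covered in a gene of 324.6 kb in every library.

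Of the receptors, Robo1 (chr16:72308306-73046095, plus strand), which guides commissural and cortical axons, had 16200 and 14000 bp in shCTR and 34200 and 21400 bp in shPHF8, a ratio of 1.84. It carried 1 gained region of 1400 bp over a coding exon near its 3′ end, at 714.9 to 716.3 kb, and 1 lost region of 1800 bp in an intron at 380.7 to 382.5 kb. Most of the difference (11400 bp) was in regions present in 1 to 3 libraries that were neither gained nor lost. Robo2, its close relative, went in the opposite direction, with 5200 and 6200 bp in shCTR and 2800 and 1600 bp in shPHF8. A lost region of 4000 bp lay in an intron 15.2 to 19.2 kb after the start of Robo2 and held -2700 of the -3500 bp between the means. Robo3, a divergent member that opposes Slit repulsion, had 5800 bp in shPHF8 replicate 1, 246 bp in shCTR replicate 2 and none in the other libraries, so a single library set its shPHF8 mean.

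The netrins and their receptors gave 1 lower gene and no higher one among 10. Ntn1, the attractant of commissural axons, had 56800 and 70000 bp in shCTR and 72200 and 57400 bp in shPHF8. It held 1 gained region of 2400 bp in an intron, 25 to 27.4 kb from the start, and 1 lost region of 1200 bp over a coding exon at 15.2 to 16.4 kb. Ntn4 had 51807 and 56200 bp in shCTR and 58200 and 45400 bp in shPHF8. In both netrins the 2 conditions overlapped, and in both shPHF8 replicate 1 was the highest library. The netrin G genes, which encode membrane-anchored relatives that do not bind Dcc, also overlapped: Ntng1 ranged from 5400 to 9600 bp and Ntng2 from 1800 to 9000 bp.

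The netrin receptors were sparsely covered. Unc5c, a repulsive receptor, was the lower gene, with 800 and 3400 bp in shCTR and no peak in either shPHF8 library. Its lost region of 1000 bp lay in an intron 75.8 to 76.8 kb after the start. Unc5b, a receptor also known from blood vessels, had 4200 bp in shCTR replicate 2 and 800 bp in shPHF8 replicate 2, and none in the other libraries. Unc5d had 13200 and 18600 bp in shCTR and 13200 and 8200 bp in shPHF8. Dcc, the attractive netrin receptor and the longest gene of the 47, had a peak in shCTR replicate 2 alone, of 2000 bp. Summed over the 5 receptors, the covered length was 14 and 28.2 kb in shCTR and 13.2 and 9 kb in shPHF8, a ratio of 0.526 between the means. Both shPHF8 libraries lay below both shCTR libraries, but the nearest, at 14 and 13.2 kb, were close. The Eph and Robo receptor sums, given below, went the other way, mainly through Ephb1 and Robo1.

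Among 14 Eph receptors, 4 were higher and 4 lower, and among 7 ephrins 1 was lower. Ephb1 (chr9:101922128-102354693, minus strand), a receptor that directs the uncrossed axons of the retina, had 28600 and 34800 bp in shCTR and 81473 and 64273 bp in shPHF8. The means were 31700 ± 4384 and 72873 ± 12162 bp (SD, n = 2), a ratio of 2.3. Ephb1 had 4 gained regions, more than any other of these genes: at 122.9 to 130.3 kb and 360.9 to 366.1 kb in introns, and at 309.7 to 313.9 kb and 383.3 to 386.9 kb over coding exons. They were 3600 to 7400 bp wide, and 1 lost region of 3000 bp lay in an intron at 106.5 to 109.5 kb. Of the 41173 bp between the means, 16000 bp lay in regions with a peak in some of the libraries that were neither gained nor lost, 15200 bp in gained regions, 12373 bp in regions with a peak in every library and -2400 bp in the lost region.

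**Figure D3:**
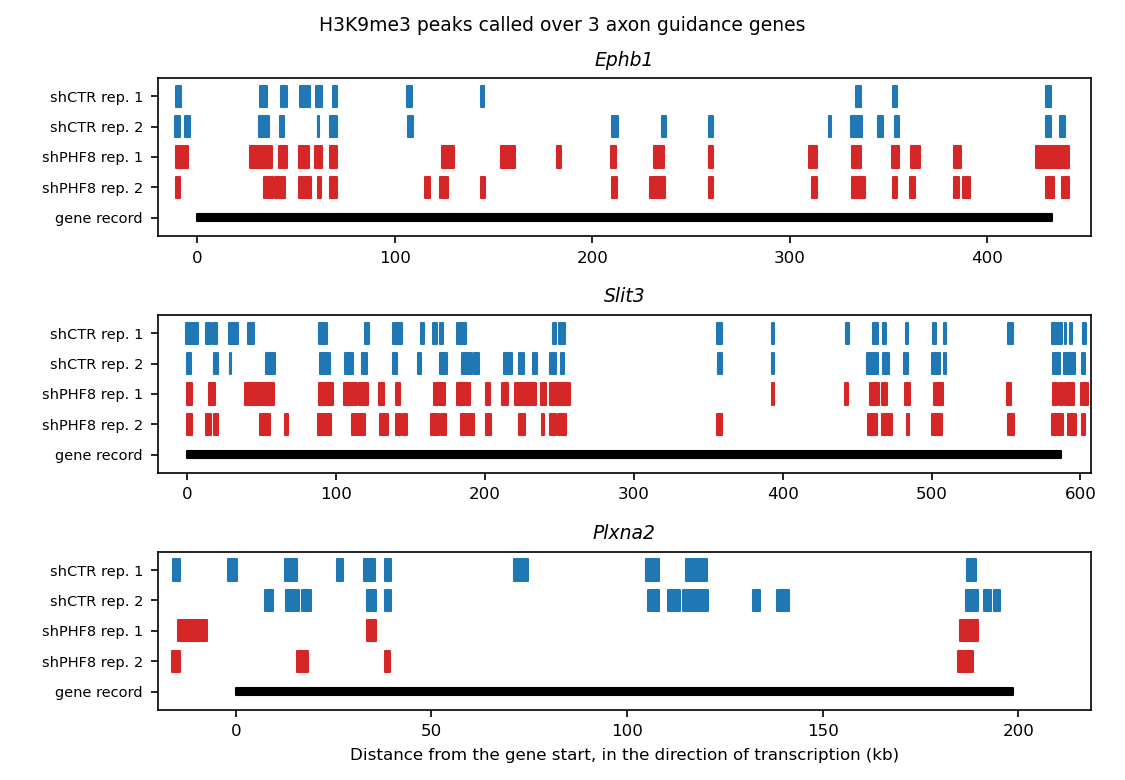
Positions of H3K9me3 peaks over Ephb1, Slit3 and Plxna2 in the 4 libraries. The horizontal axis is the distance from the gene start in kb in the direction of transcription, each box is a peak, blue for shCTR and red for shPHF8, and the black bar is the gene record. In Ephb1 the red rows hold peaks at 309.7 to 313.9, 360.9 to 366.1 and 383.3 to 386.9 kb where the blue rows have none. In Plxna2 the peaks between 104.8 and 120.6 kb are in the blue rows alone.

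The other higher Eph receptors were Ephb2, Epha2 and Epha4. Ephb2, which acts in axon crossing and at synapses, had 21662 and 21262 bp in shCTR and 38662 and 26462 bp in shPHF8, a ratio of 1.52. All of this difference (11100 bp) was in regions present in every library, so the same places were covered over a wider span. Epha2 (chr4:141301240-141329384, plus strand) is a receptor best known from epithelia, and it had 0 and 2600 bp in shCTR and 8400 and 9600 bp in shPHF8. In shPHF8, 29.8 and 34.1% of this short gene was covered, against 0 and 9.24% in shCTR. A gained region of 7000 bp spanned coding exons from 19 to 26 kb after its start. Epha4 (chr1:77367185-77515088, minus strand), a receptor for A and B ephrins in corticospinal axons, had none in shCTR and 11000 and 1800 bp in shPHF8. Its gained region of 3600 bp lay 7.7 to 11.3 kb after the start and touched a coding exon.

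The lower Eph receptors were Epha7, Epha8, Ephb3 and Ephb4. Epha7, which helps to shape cortical maps, had 2400 and 4670 bp in shCTR and none in shPHF8. Epha8 (chr4:136929419-136956816, minus strand), a receptor of midbrain neurons, had 2616 and 8816 bp in shCTR and none in shPHF8, and its lost region of 4800 bp lay over coding exons 14.2 to 19 kb after the start. Ephb3 had 1600 and 800 bp in shCTR and none in shPHF8, all of it in a lost region in an intron at 3.4 to 5 kb. Ephb4, a partner of ephrin B2 in vessels, had 3000 and 3800 bp in shCTR and 0 and 2000 bp in shPHF8, with a lost region of 1600 bp over coding exons. These 4 genes each had under 9 kb covered in any library, well below the higher receptors Ephb1 and Ephb2. The remaining Eph receptors with a peak overlapped between conditions. Epha10 had 14400 and 16000 bp in shCTR and 15102 and 8000 bp in shPHF8, with a lost region of 3000 bp over coding exons at 13.1 to 16.1 kb. Epha5 and Epha6, both very long genes, had at most 4531 bp covered.

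Of the ephrin genes, Efna3, a membrane-anchored ligand of Epha receptors, was lower, with 2702 and 1200 bp in shCTR and none in shPHF8. Its lost region of 2200 bp lay in an intron and over an antisense gene record. Efna5, which sets up the retinal map, had 10800 and 11400 bp in shCTR and 16200 and 4600 bp in shPHF8. The shPHF8 replicates of Efna5 lay on either side of shCTR, although a gained region of 3200 bp was present in both, 45.7 to 48.9 kb from the start. Efnb2 had 6800 and 11000 bp in shCTR and 12200 and 7800 bp in shPHF8, and Efnb3 had a peak in the body in shCTR replicate 2 alone (1605 bp).

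In the semaphorin group, 3 genes were lower and 1 higher. Plxna2 (chr1:194618218-194816869, plus strand), a semaphorin receptor subunit of cortical and hippocampal axons, had the largest difference of the 47 genes in this direction. Its covered bases were 23583 and 35000 in shCTR and 6600 and 7800 in shPHF8, with means of 29291.5 ± 8073 and 7200 ± 848.5 bp (SD, n = 2), a ratio of 0.246. Lost regions of 3400 and 6200 bp lay in introns at 104.8 to 108.2 kb and 114.4 to 120.6 kb, and together held -8800 of the -22091.5 bp between the means. The remainder was mostly (-14691.5 bp) in regions with a peak in some of the libraries that were neither gained nor lost. Nrp2 (chr1:62703285-62818695, plus strand), the receptor that binds Sema3f and Sema3c, had 19000 and 24600 bp in shCTR and 14400 and 3400 bp in shPHF8, a ratio of 0.408. The shPHF8 replicates of Nrp2 differed by more than shPHF8 replicate 1 and shCTR did. A lost region of Nrp2 lay near the start and another, of 2400 bp, over a coding exon at 92.1 to 94.5 kb.

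Plxna4, the receptor subunit for Sema3a in sensory axons, was the higher gene, with 16600 and 19000 bp in shCTR and 31800 and 22400 bp in shPHF8. Of its 9300 bp difference, 7500 bp was in regions present in 1 to 3 libraries that were neither gained nor lost. Sema3d had 1000 and 4200 bp in shCTR and none in shPHF8, with a lost region of 1200 bp over a coding exon near its 3′ end. Sema3a, the classical collapsing ligand, was the most covered semaphorin, with 39600 and 34600 bp in shCTR and 35800 and 28800 bp in shPHF8, which overlapped. Nrp1, the receptor of Sema3a, had 1600 to 5200 bp. Summed over the 5 receptors of this group, the covered length was 63.8 and 82 kb in shCTR and 58 and 35.2 kb in shPHF8. Receptor sums did not share a direction across families. The 14 Eph receptors had 76.6 and 96.9 kb in shCTR and 156.2 and 117.9 kb in shPHF8. The 3 Robo receptors had 21.4 and 20.4 kb in shCTR and 42.8 and 23 kb in shPHF8. Single genes set these directions: without Ephb1, Robo1 or Plxna2, the conditions overlapped in the sum of the remaining receptors of that group. The Epha receptors taken alone also overlapped, with 21.7 and 36.2 kb in shCTR and 36.1 and 25.1 kb in shPHF8. How often sums over other sets of genes separate the conditions was not computed.

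Summed over all 47 gene bodies, 473.8 and 555.0 kb were covered in shCTR and 655.7 and 491.4 kb in shPHF8, and the conditions overlapped. The ratio of the means was 1.12, against 1.20 over all protein-coding gene bodies and 1.32 over the whole chromosomes. This sum rested on few genes and 1 library. It was 0.941 without Slit3 and Ephb1, a choice made after their values were seen, and 0.955 without shPHF8 replicate 1. The median over the 34 genes with a peak in shCTR of each gene's own ratio was 0.871. By kind of region, the difference of 59.2 kb between the summed means was made of 40.6 kb in gained regions, -44.0 kb in lost regions, 57.1 kb in regions present in every library and 5.5 kb in the others. Replicates differed in a steady direction: shPHF8 replicate 1 lay above replicate 2 in 21 genes and below it in 6, and shCTR replicate 1 lay above replicate 2 in 9 genes and below it in 25. Coding and noncoding exons, 3.73% of the bases of the 47 genes, took 6.26 and 6.52% of the covered bases in shCTR and 5.29 and 4.86% in shPHF8.

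Gained regions were present at 7 of 47 genes (14.9%), against 4.59% of all protein-coding genes and 15.6% after standardisation for length, so the count was close to that of genes of their length. Lost regions were present at 17 genes (36.2%), against 8.08% of all protein-coding genes and 23.4% after standardisation, which corresponds to 11.0 genes. Robo1, Slit3, Ntn1 and Ephb1 had both kinds, 3 genes had gained regions alone and 13 had lost regions alone. All 12 gained regions lay inside genes, 5 touching a coding exon by annotation and 7 in introns, and the 21 lost regions included 1 upstream of its gene. Of the 12 gained and 21 lost regions, 2 and 3 overlapped another gene record, none of it protein-coding. These counts also moved with peak width, and the shares of all protein-coding genes that follow were not standardised for length. With peaks of at least 3000 bp alone, 5 genes had a lost region, against 1.67% of all protein-coding genes, and when each library was cut to its widest peaks, to the same covered length, 2 genes had a gained region, against 1.63% of all. Leaving out a library can only add such regions: without shPHF8 replicate 1 or 2, 14 and 12 genes had a gained region (12.8 and 8.03% of all protein-coding genes), and without shCTR replicate 1, 27 had a lost one (16.1% of all).

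A promoter peak in at least 1 library was more frequent than in genes of this length, while a body peak was about as frequent. Both kinds were present at fewer guidance genes in shPHF8. Body peaks were in 28 and 34 genes in shCTR and 24 and 26 in shPHF8, and the share of all protein-coding genes by library was not computed for bodies. A peak within 3 kb of the gene start was present in at least 1 library at 21 of 47 genes (44.7%), against 28.0% of all protein-coding genes and 32.3% after standardisation for length. A promoter peak in every library was present at 6 genes (12.8%), against 11.1% and 12.1%. By library, 16 and 17 of the 47 promoters had a peak in shCTR (34.0 and 36.2%) and 7 and 9 in shPHF8 (14.9 and 19.1%). After standardisation for length, the share of all protein-coding genes was 23.0 and 24.5% in shCTR and 18.5 and 19.4% in shPHF8, so it was also lower in shPHF8. A peak lay over the gene start itself at 4 and 7 of the 47 genes in shCTR and at 2 and 2 in shPHF8, against standardised shares of 7.56 and 8.98% in shCTR and 6.82 and 6.12% in shPHF8.

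**Figure D4:**
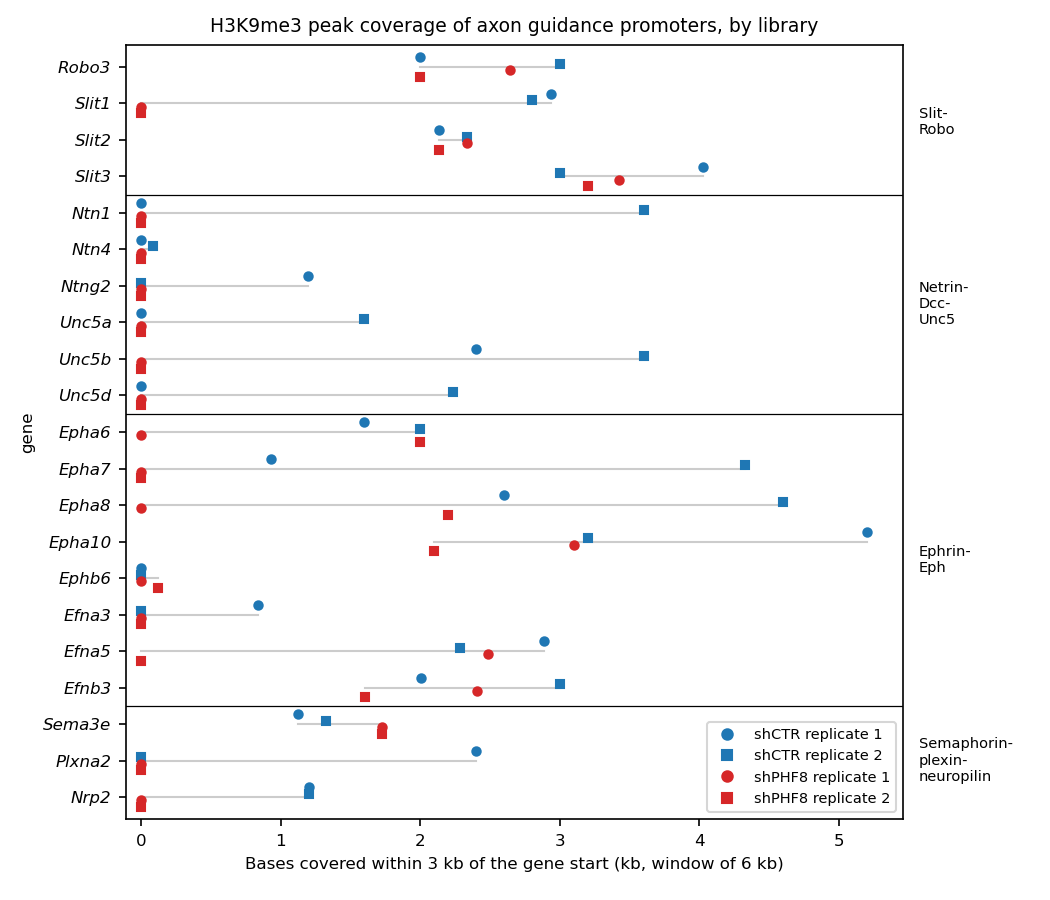
Bases covered by H3K9me3 peaks within 3 kb of the gene start (horizontal axis, kb of a 6 kb window) in each library, for the 21 guidance genes with a promoter peak in any library. Blue symbols are shCTR and red symbols shPHF8, circles replicate 1 and squares replicate 2. Both red symbols sit at 0 and both blue ones above it for Slit1, Unc5b, Epha7 and Nrp2, and the Slit2, Slit3 and Robo3 promoters are covered in every library.

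Promoter coverage was lower in shPHF8 at 6 genes (12.8%), against 4.09% of all protein-coding genes and 6.41% after standardisation, which corresponds to 3.01 genes. It was higher at 1 gene (2.13%), against 4.05% and 3.83%. Slit1 had 2936 and 2800 bp in shCTR and none in shPHF8, in a lost region of 4600 bp from 1.1 kb before to 3.5 kb after the start that also touched a coding exon. Unc5b had 2400 and 3601 bp in shCTR and none in shPHF8, and its lost region of 2800 bp lay upstream, ending 0.4 kb before the start. Epha7 had 931 and 4331 bp in shCTR and none in shPHF8, with a lost region 2.1 to 5.7 kb after the start. The centres of these lost regions, and of those of Nrp2 and Efna3, are the sequences printed above, and the Epha7 and Efna3 centres lie just outside the 3 kb window that the regions reach into. Nrp2 had 1200 bp in both shCTR libraries and none in shPHF8, in a lost region of 1200 bp in an intron at 1.3 to 2.5 kb. Efna3 had 836 bp within the window in shCTR replicate 1 alone, since its lost region only reached into the window, so it was not called lower there.

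The other promoters called lower kept a peak in shPHF8. Epha8 had 2600 and 4601 bp in shCTR and 0 and 2200 bp in shPHF8, and each shCTR library had a peak over the gene start. Epha10 had 5201 and 3201 bp in shCTR and 3102 and 2102 bp in shPHF8, a gap of 99 bp between the nearest libraries. The higher promoter was that of Sema3e, a repulsive ligand that binds Plxnd1 directly, with 1125 and 1325 bp in shCTR and 1725 bp in both shPHF8 libraries. A lost region lay over the promoter of 5 genes (10.6%), against 2.34% of all protein-coding genes and 3.87% after standardisation, or 1.82 genes. A gained region lay over the promoter of 0 of 47 genes, against 0.761% and 0.604%. The promoter counts moved with the settings: 3 genes were lower when a gap of at least 1000 bp was required (1.81% of all protein-coding genes), 2 within 1 kb of the start (1.96% of all) and 1 with peaks of at least 3000 bp alone (1.36% of all). After scaling to equal totals 12 were lower (8.88% of all) and none was higher. Without shCTR replicate 1 or 2, 12 and 11 promoters were lower (8.87 and 7.51% of all).

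Unlike the Slit1 promoter, those of Slit2 and Slit3 were covered in every library. Slit2 had 2138 and 2338 bp in shCTR and 2338 and 2138 bp in shPHF8, and Slit3 had 4024 and 3000 bp in shCTR and 3424 and 3200 bp in shPHF8. Slit3 was the one gene of the 47 with a peak over its start in every library. Robo3 also kept its promoter peak, with 2000 and 3000 bp in shCTR and 2646 and 2000 bp in shPHF8. The promoters of Epha10, Sema3e and Efnb3 also had a peak in every library. The Efnb3 window, with 2005 and 3005 bp in shCTR and 2405 and 1605 bp in shPHF8, also holds part of the protein-coding gene Wrap53. In the remaining promoters the conditions overlapped. A peak was present in 1 shCTR library alone at Ntn1 (3601 bp), Ntn4 (81 bp), Ntng2 (1196 bp), Unc5a (1600 bp), Unc5d (2236 bp) and Plxna2 (2400 bp), and in shPHF8 replicate 2 alone at Ephb6 (119 bp). Epha6 had 1600 and 2000 bp in shCTR and 0 and 2000 bp in shPHF8. Efna5 had 2884 and 2284 bp in shCTR and 2484 and 0 bp in shPHF8.

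The lower calls were spread over short and long genes. Among the 10 guidance genes under 20 kb, 2 were lower in the body, where 3.26% of all protein-coding genes of this length were. Of the 7 genes of 20 to 50 kb, 2 were lower, against 6.85% of all genes of this length. Of the 3 genes of 50 to 100 kb, 0 were lower, against 11.5%. Among the 10 genes of 100 to 200 kb, 3 were lower and 2 higher, against 12.2% and 31.3% of all genes of this length. Among the 17 genes of 200 kb and over, 4 were higher and 3 lower. Of all genes of 200 to 500 kb, 12.4% were lower and 40.0% higher. Of all genes of 500 kb and over, 13.5% were lower and 45.7% higher. The share of long guidance genes called higher was below that of long genes in general, a difference that was not tested.

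A further 72 genes of the guidance pathways, other semaphorins, plexins and coreceptors and the proteins that carry the signal inside the cell, were compared in the same way. In the gene body 15 were higher (20.8%) and 9 lower (12.5%) in shPHF8, against 24.2% and 9.47% of protein-coding genes standardised to the lengths of this list. More genes higher than lower is also the order over all protein-coding genes (13.0% and 6.08%). A lost region was present at 21 (29.2%, against 19.4% after standardisation) and a gained region at 5 (6.94%, against 11.9%). The genes with gained regions were Rgma, a repulsive ligand of neogenin, the Slit-Robo GTPase-activating proteins Srgap1 and Srgap3, the adaptor Nck2 and Mical3, a relative of the oxidase that acts below plexins. Rgma had 7800 bp in both shCTR libraries and 20800 and 14200 bp in shPHF8, and 1 of its 2 gained regions, of 7800 bp, began 2.1 kb after the start, within the promoter window. Srgap1 had 38200 and 36200 bp in shCTR and 70200 and 62400 bp in shPHF8, with 3 gained regions. All 5 of these genes were called higher.

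Lost regions were most numerous at Vav3, which acts below Eph receptors, with 6, and at Sema6d, a transmembrane semaphorin, with 5. Vav3 had 28800 and 32400 bp in shCTR and 8200 and 11000 bp in shPHF8. Srgap2, with 4 lost regions, had 36000 and 29200 bp in shCTR and 5800 and 6600 bp in shPHF8, opposite to Srgap1 and Srgap3. Lost regions reached the promoters of Sema4b, Sema5b and Rgmb. The promoter of Sema4b had 4000 bp in both shCTR libraries and none in shPHF8, and that of Rgmb had 3039 and 2600 bp in shCTR and none in shPHF8. Rgma and Rgmb, which encode related neogenin ligands, thus carried the opposite kinds of region near their starts. The gained region of Rgma only reached into the window, though. The promoter coverage of Rgma overlapped between conditions, with 1292 and 1692 bp in shCTR and 2801 and 892 bp in shPHF8. A promoter peak in every library was present at 7 of the 72 genes (9.72%): Rgma, Draxin, Cntn2, Chl1, Nck1, Pak1 and Ngef. The share was 11.1% of all protein-coding genes and 11.9% after standardisation. Pak1, a kinase activated by Rac, was the one promoter of the 72 called higher, with 2200 bp in both shCTR libraries and 3541 and 3000 bp in shPHF8. This is 1.39%, against 4.05% of all protein-coding genes and 3.76% after standardisation. Lower promoters numbered 4 (5.56%), against 4.09% and 5.71%, a share near the background.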

How the data were processed

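H3K9me3 ChIP-seq libraries of shCTR and shPHF8 NSCs (2 each) were analysed, and the 2 inputs, for which no peak list was given here, were not used. The authors aligned reads to mm10 (the methods name SOAPaligner/SOAP2, the submitters' processing notes Bowtie2 2.3.5.1 and SAMtools 1.9) and called broad peaks with SICER2, in 1 deposited list per library holding peak positions alone. Window, gap, false discovery rate and use of the input are not given in the sources used here. A presence call depends on depth and threshold, which the lists do not show. Mapped reads per library are in the paper's appendix and were not used here. Positions, deposited as 0-based starts with inclusive ends, are given 1-based, and 2 peaks per library outside chromosomes 1 to 19, X and Y were left out. Covered bases of gene bodies and promoters (GENCODE M21) were computed with Python 3.11.15 and numpy 2.4.6, and merging and coverage were tested on simulated peaks against bedtools 2.31.1. Shares standardised for length weight the share called in each of 6 length classes (edges at 20, 50, 100, 200 and 500 kb) by the number of guidance genes in it. No permutation of 2 libraries against 2 can pass 0.05.

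The genes and lists were chosen with earlier results of these data known. Genes named with values were those with a promoter peak in any library, those with a gained or lost region, the 5 with the most covered bodies and the 5 with the largest differences in each direction among genes whose conditions did not overlap. Of the 72 other pathway genes, those with a gained or lost region or a promoter peak in every library could be named. Alternatives were scaling to equal library totals, the widest peaks of each library cut at the same total length, peaks of at least 3000 bp, a gap of 1000 bp between conditions, peaks merged within 5 kb, regions covered by at least 50%, other promoter windows, the replicate number as a block and leaving out each library. Leaving out Slit3 and Ephb1 was added after seeing the data. Deviations from the condition means did not pair by replicate number (correlation 0.00184 over 10353 genes), so no pairing was assumed.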

Additional observations from a re-analysis of the deposited data

How the results depend on the processing

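Of the results under the alternatives, 40 stayed on the side of the reported value and within a limit, 28 moved beyond it and 3 changed direction. For counts the limit was a fixed ratio to the reported count, stated with the replicate block below. For the summed ratio it was the spread from the libraries (SD 0.258). After scaling to equal library totals, 17 gene bodies and 12 promoters were lower and 0 promoters higher. With each library cut to its widest peaks at the same total length, 18 bodies were lower, 0 promoters higher and 2 genes had a gained region. With peaks of at least 3000 bp, 1 body and 1 promoter were lower, 0 promoters higher, 5 genes had a lost region and the summed ratio was 1.43. A gap of 1000 bp left 0 higher and 3 lower promoters, a promoter of 1 kb left 0 and 2, and the starts of every transcript gave 3 higher promoters. Regions covered by at least 50% gave 11 genes with a gained region, and peaks merged within 5 kb gave 11 with a lost region. The cause of these moves was not tested.

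Leaving out each library in turn gave 8 to 15 higher and 11 to 19 lower bodies, 1 to 2 higher and 7 to 12 lower promoters, 7 to 14 genes with a gained and 20 to 27 with a lost region, and a summed ratio of 0.955 to 1.27, which fell below 1 without shPHF8 replicate 1. The summed ratio was also below 1 as a median over genes (0.871) and without Slit3 and Ephb1 (0.941), an alternative chosen after seeing the data. With the replicate number as a block, 7 bodies were higher and 11 lower, 1 promoter was higher and 7 lower, 7 genes had a gained and 17 a lost region, and the ratio was 1.11. The block moved no count by over 1.5 times, the limit used for counts. The replicate numbers were not shown to pair the libraries. The lists give no peak height or read count, so a change in height within a called peak is not seen, and depth could not be matched.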
